A study of Ovis aries with 95 samples.

Results

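The genes described here are those of the major histocompatibility complex (MHC) and of the partners that load its molecules, read by 29 of the 15008 different gene probes of a sheep array. The members were taken from the probe annotation alone. They are the gene probes whose description mentions MHC or histocompatibility, together with the probes named OVAR, B2M or PSMB8, without 1 probe for the MHC-related gene MR1. They comprise 15 class I probes, 11 class II probes and 3 processing probes, of which 2 read B2M and 1 reads PSMB8. RNA came from 4 brain regions (cortex, brainstem, hippocampus, hypothalamus) of untreated sheep. Fetuses were sampled at gestational ages of 80, 100, 120, 130 and 145 d, and newborn lambs 1 d after birth. The design text places the 100 d group between 96 and 100 d and the 145 d group between 142 and 144 d, and states that no ewe showed signs of labor. The 95 arrays make groups of 4, with 3 for hippocampus at 100 d, and no sample was treated. Every group held 1 set of twins that the labels do not mark, and the labels do not say which arrays of different regions share an animal, so p-values measure only the spread between these samples.

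MHC class I molecules are carried by most nucleated cells and present short peptides from inside the cell to cytotoxic T cells. Each class I heavy chain is held at the surface by the light chain beta-2-microglobulin, encoded by B2M, and many of its peptides are cut by the immunoproteasome, in which PSMB8 is a catalytic subunit. Class II molecules are pairs of an alpha and a beta chain (DR, DQ and others), are carried mainly by antigen presenting cells such as macrophages, dendritic cells and B cells, and present peptides from taken-up proteins to helper T cells. In the brain, microglia are the main resident cells able to express class II, and both classes are inducible by interferons.

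Many class I probes lie close to each other in sequence, and their sequences as given by the array files show what each can tell apart. The 5 probes built on the sheep class I genes M34672 to M34676 share a run of 11 bases, in capitals in the following stretches.
M34672: tcatatgcacttAGTAATGATGTcttattt
M34673: tcatgtgcactgAGTAATGATGTcttatac
M34674: tcacatgcactgAGTAATGATGTcttattt
M34675: tcatatgcactgAGTAATGATGTgttattt
M34676: tcgtatgcactgAGTAATGATGTcttattt
A second set of class I probes reads the end of the coding sequence, with a stop codon in capitals.
OVAR probe 2: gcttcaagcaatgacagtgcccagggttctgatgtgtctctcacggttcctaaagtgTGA
U03092: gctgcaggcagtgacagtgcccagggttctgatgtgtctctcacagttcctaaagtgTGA
AJ874683: caggctgcaagcagtgacggtgccTAG
AJ874675: ctcttatggttcctaaagtgTGA
AJ874681: ttctcacggttcctaaagtgTGA
In AJ874683 a stop codon appears earlier, in the frame of OVAR probe 2, through the substitution C25T (the base of OVAR probe 2 first, positions counted from 1 at the 5′ end of the AJ874683 probe). The class I probes outside these sets include the 3 below, shown because TC16824 carried the clearest birth change in the brainstem, AJ874684 was also called there and EF489531 behaved apart from its class.
TC16824: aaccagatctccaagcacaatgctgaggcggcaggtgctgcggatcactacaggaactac
AJ874684: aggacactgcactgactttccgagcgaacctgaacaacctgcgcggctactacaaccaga
EF489531: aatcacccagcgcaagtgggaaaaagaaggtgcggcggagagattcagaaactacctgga
Of the 406 pairs of members, 25 shared a run of at least 15 bases, 23 of them within class I and 0 between class I and class II. The class I probes are therefore not independent readings of separate genes, and transcripts of near-identical class I copies may be split or shared among them.

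The partners of class I are read by probes with other sequences, shown for B2M up to its stop codon, in capitals, and whole for PSMB8.
B2M probe 1: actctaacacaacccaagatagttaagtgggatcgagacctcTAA
PSMB8: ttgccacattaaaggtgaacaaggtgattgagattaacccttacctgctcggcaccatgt
Both B2M probes overlap by 59 bases, so they read the same stretch of the transcript. Among the class II probes, M93431 (DQ alpha) and OVAR-DQA1 probe 2 differ at 4 bases, in capitals below, namely G2A, C34T, T40C and T41G with the base of M93431 first and positions counted from 1 at the 5′ end.
M93431: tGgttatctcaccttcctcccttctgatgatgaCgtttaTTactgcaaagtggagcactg
OVAR-DQA1 probe 2: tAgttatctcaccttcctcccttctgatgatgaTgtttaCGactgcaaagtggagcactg
The first 30 bases of the probe for the DQ beta chain DQB1 are shown because this probe separated the arrays into high and low ones.
L08792: gggaagcacattgagaccattacctggtta

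All values are log2 intensities after background correction and quantile normalization over the arrays. A change is the difference of 2 group means on that log2 scale, given with its standard error (SE), and a member is called changed at a Benjamini-Hochberg adjusted p under 0.05 in limma, adjusted over all probes kept in the region. In each region all 29 members passed the filter on dim probes, and 17 were well above background on every array. DYA (DY alpha) had no array well above background in 7 groups, and DQ659131 (DRB1) had none in 2, so these levels are bounds there. No member spot was saturated. Between 59.5 and 88.5% of gene spots were well above background on an array. Region and slide cannot be told apart, because each of the 14 slides held a single region. The neuron and oligodendrocyte lists had 0 probes under those gene names, so the tissue could be checked only in part. HOXA5, a hindbrain gene, passed the filter in brainstem and not in the other regions. The other region lists did not set the labelled regions apart in this way. At 80 d the forebrain gene NEUROD1 had a higher median sum in brainstem (19160) than in cortex (6686), and at 145 d the hypothalamus list had a lower one in hypothalamus (31600) than in cortex (80540). In whole tissue, fewer cells of a type and less RNA per cell cannot be told apart either.

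Some arrays stood apart in these genes. In each region the highest array at 120 d and the highest array 1 d after birth lay well above the others of their age in mean class I level. At 120 d that level was 14.83 in cortex (replicate 2), 14.73 in brainstem (replicate 3), 14.27 in hippocampus (replicate 2) and 14.51 in hypothalamus (replicate 4), against 12.07, 13.25, 12.36 and 13.20 on the next array. After birth it was 16.01 in cortex, 15.04 in brainstem and 15.78 in hypothalamus (replicate 2 in each) and 15.83 in hippocampus (replicate 1), against 14.05, 14.13, 14.40 and 14.15 on the next array. These means run over the class I members with a value, which were only 12 on the brainstem array at 120 d and 7 on that after birth, so the probe sets of the brainstem arrays differ. Over those members these arrays exceeded the mean of the others of their age by a median of 2.18 and 3.00. On the brainstem array after birth 10 member values were missing because the scanner software had marked these bright spots as outliers, and another brainstem array 1 d after birth (replicate 4) had a dim area that held the spots of 6 members. In hippocampus, 5 arrays of slide 4, a single array at each age from 100 d on, read B2M probe 1 at 11.78 to 12.86, while all other hippocampus arrays read 13.41 to 17.52. On these 5 arrays 59.65 to 72.33% of probes were well above background, against 71.05 to 85.24% on the others. Slide 4 of hippocampus was scanned on another day than the other slides of that region, and so was slide 4 of hypothalamus. The latter slide gave a single array here, the high one at 120 d (replicate 4). For that array, sample, slide and scan day cannot be told apart. The part of these arrays in the results was not tested beyond the values without them.

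Age altered most class I members in 3 of the regions. In the F test over the 6 ages, 13 of the 15 class I members were called in cortex, 12 each in brainstem and hypothalamus, and 3 in hippocampus. Class II gave 4 of 11 members in cortex, 6 in brainstem and 0 in the other regions. The processing probes gave 3 of 3 in cortex and 1 of 3, PSMB8, in brainstem and in hypothalamus. Over all probes kept, the same test called 45.8% for cortex, 39.9% for brainstem, 3.04% for hippocampus and 14.8% for hypothalamus. The class II counts in cortex and brainstem thus lay on both sides of the background, while those of class I were above it in each region.

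**Figure D1:**
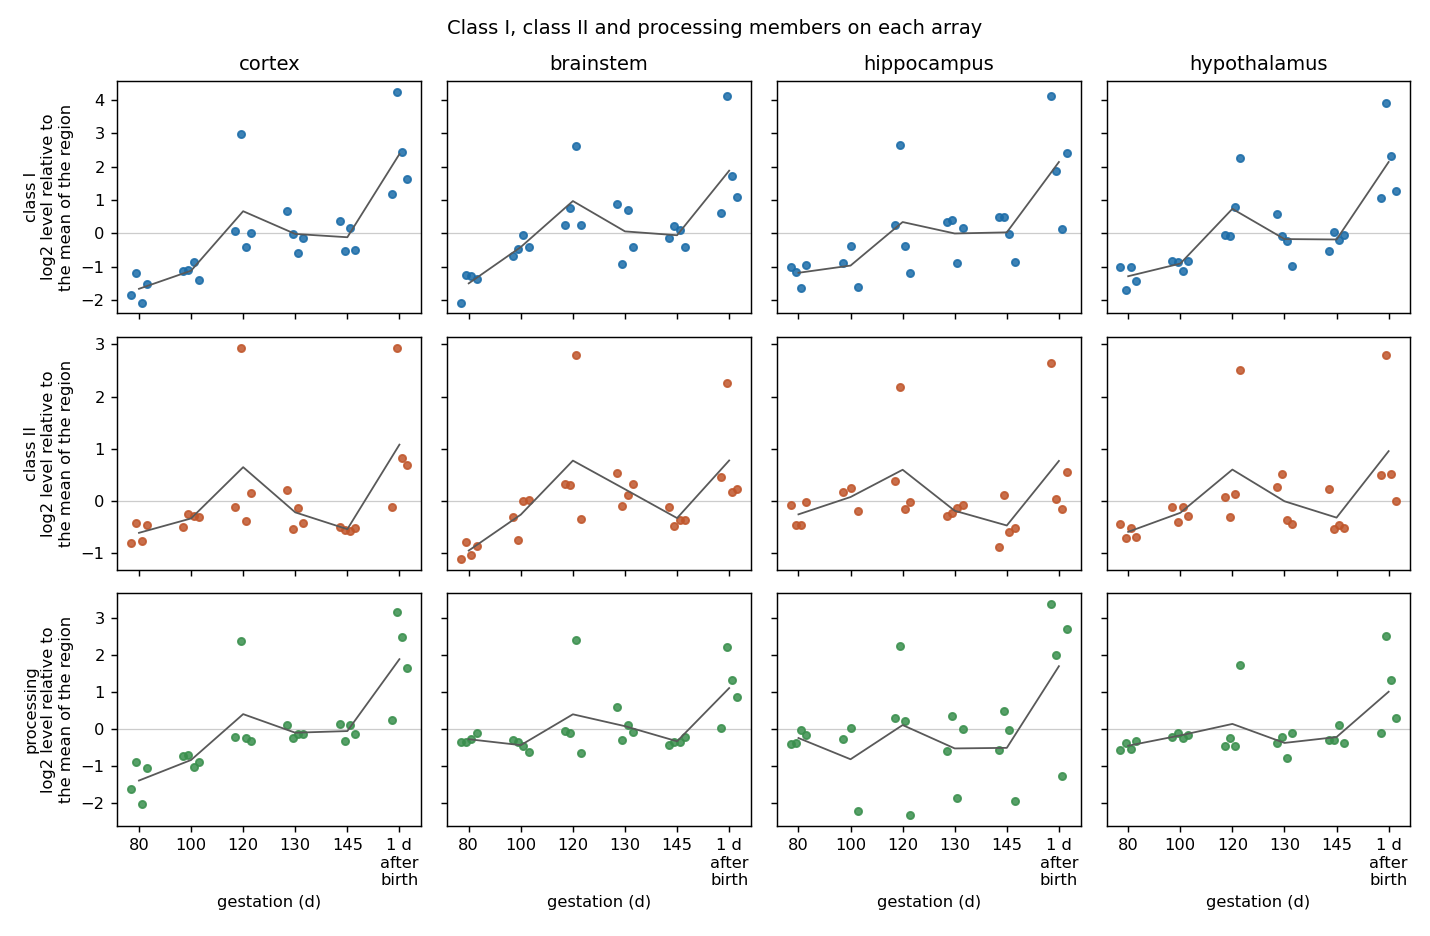
Median level of class I, class II and processing members on each array (points), as the log2 difference from each member's mean over the region, against gestational age and 1 d after birth, where lines join the group means. Class I means went from -1.66 at 80 d to 2.37 after birth in cortex, and a single high array stands out at 120 d in every region.

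The rises called from 80 to 145 d were those of class I members and, in cortex, of B2M. Between 80 and 145 d, 7 class I members rose in cortex, 8 in brainstem and 3 in hypothalamus, and 0 fell in any region. With the replicate numbers as a block, 12 members of all classes were called higher in cortex instead of 9, against 20.8% of all probes. Single arrays moved these counts. The cortex count, 9 over all classes, was 3 when replicate 3 at 80 d was dropped, against 17.6% of all probes called higher in that refit. The brainstem count was 4 when replicate 1 at 80 d was dropped, against 14.1% of all probes. That of hypothalamus was 0 when either replicate 1 at 80 d or replicate 4 at 145 d was dropped, against 4.19 and 4.68%. In hippocampus 0 members were called by limma in either direction, and 3 class I members were higher at an unadjusted p under 0.05, against 6.76% of all probes. Among all probes 18.9% rose and 22.3% fell in cortex, 16.2% and 20.7% in brainstem, 2.08% and 2.24% in hippocampus, and 5.32% and 8.07% in hypothalamus. The median class I change was 1.5 for cortex, 1.46 for brainstem, 1.12 for hippocampus and 0.92 for hypothalamus, where the median of all probes lay between -0.02 and 0.00. AJ874681, a class I transcript, was called in cortex, brainstem and hypothalamus. AJ874675, AJ874683 and U03092 were called in cortex and brainstem.

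Some markers of other cells were also called over this span. Over all probes 18.9% were called higher and 22.3% lower in cortex, and 16.2 and 20.7% in brainstem. For hippocampus these shares were 2.08 and 2.24%, and for hypothalamus 5.32 and 8.07%. The lists hold few genes, so their counts are a description. Of 5 microglia and myeloid genes tested, 2 were called higher at 145 d than at 80 d in cortex (FCER1G, by 1.34 and 1.13 on 2 probes, and ITGAM by 0.53), 1 in brainstem (CD86, by 0.95), 0 in hippocampus and 1 in hypothalamus (ITGAM, by 0.70 and 0.72), and 0 were called lower. The summed intensity of their 10 probes was 1436 to 1871 at 80 d and 2429 to 2910 at 145 d in cortex, and the ranges at the 2 ages overlapped in the other regions. The astrocyte list, read by 2 genes, had median changes of 1.76 to 2.63, and its filament gene GFAP was called higher in every region. NEUROD1, the gene of the forebrain list with a probe, was called lower in every region (on 1 of 2 probes for hypothalamus), with median changes of -0.88 for cortex, -4.83 for brainstem, -2.23 for hippocampus and -1.49 for hypothalamus. The erythroid medians were -1.13 to -0.41 over the regions, with HBB called lower on 1 probe and higher on another in cortex, brainstem and hypothalamus. CR2 was called higher in cortex on 1 of its 2 probes (0.49). Of the T cell list, LCK was called lower in cortex (-0.45) and brainstem (-1.21), and CD5 higher in brainstem (0.91 and 1.00 on 2 probes) and hypothalamus (0.64). Interferon axis genes called here included IRF2, higher in cortex (0.25) and hypothalamus (0.35), IFNAR1, higher in cortex (0.46 and 0.54), IFNAR2, lower in cortex (-0.42 and -0.50), and IRF3, lower in hypothalamus (-0.59). The part of these cells in the class I changes was not tested.

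The class I member with the largest called fetal change in cortex was M34673. Its log2 intensity was 10.52, 10.86, 10.13 and 10 on the arrays at 80 d and 13.17, 12.54, 12.70 and 13.16 at 145 d. All arrays at 145 d were above all arrays at 80 d, and the change was 2.51 (SE 0.74, adjusted p = 0.00903 in limma), a 5.71-fold rise. In brainstem the largest was AJ874681, with 9.76, 10.12, 11.55 and 10.64 at 80 d and 12.78, 13.31, 13.49 and 12.54 at 145 d. These groups did not overlap, and the change was 2.51 (SE 0.67, adjusted p = 0.00525 in limma). Both calls held with each array left out in turn.

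In hypothalamus the largest called fetal change was that of M34672, from 12.02, 13.08 and 10.92 at 80 d to 15.17, 14.37 and 14.24 at 145 d. The fit left out 1 array of each age because of an outlier mark. The change was 2.59 (SE 0.79, adjusted p = 0.0391 in limma), and with the marked spots kept it was 2.02 (adjusted p = 0.0774), so this call depended on the marks. M34673 rose there by 2.51 (SE 0.70, adjusted p = 0.0211). With single arrays left out, the call of M34672 was lost in 6 refits of 24 (adjusted p up to 0.162) and that of M34673 in 3 (up to 0.0664).

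Class I levels did not climb evenly with gestation. At 120 d the mean was above that at 145 d in 15 of 15 members in cortex, brainstem and hypothalamus and in 12 in hippocampus. Without the highest array at 120 d, the counts were 8 for cortex, 15 for brainstem, 3 for hippocampus and 14 for hypothalamus. The other members shared this. In the same order of regions, 10, 10, 11 and 10 of 11 class II members and 3 of 3 processing members in each were above 145 d. Without the highest array these counts were 7, 10, 9 and 9 for class II and 1, 3, 2 and 1 for processing members. M34673 in cortex read 13.27, 15.79, 12.41 and 12.13 at 120 d and 13.17 at most at 145 d, so that replicate 2 stood well apart. This comparison of 120 d with 145 d is a description and was not tested.

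Mean class I levels 1 d after birth were above those at 145 d in every region, and differences were called in 3 of them. Relative to 145 d, the median class I change 1 d after birth came to 2.45 for cortex, 1.40 for brainstem, 2.06 for hippocampus and 2.49 for hypothalamus, where the medians over all probes were -0.02, 0.04, -0.03 and 0.01. The mean after birth was above that at 145 d for 15 of 15 class I members in cortex, hippocampus and hypothalamus and for 13 in brainstem. Class I members called higher were 2 for cortex, 5 for brainstem, 0 for hippocampus and 8 for hypothalamus, and 0 members of any class were called lower. The background for higher calls was 0.179% for cortex, 3.71% for brainstem, 0.00757% for hippocampus and 1.10% for hypothalamus, and for lower calls 0.0893%, 1.07%, 0% and 0.728%. In hippocampus, where limma called 1 of 13204 probes, M34673 changed by 3.03 (SE 0.82, adjusted p = 0.84). With the replicate numbers as a block the cortex count was 4 members instead of 2, against 0.223% of all probes. With the processed signal, no filter on dim probes or trend and robust settings it was 0, against 0.0819, 0.107 and 0.141%.

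**Figure D2:**
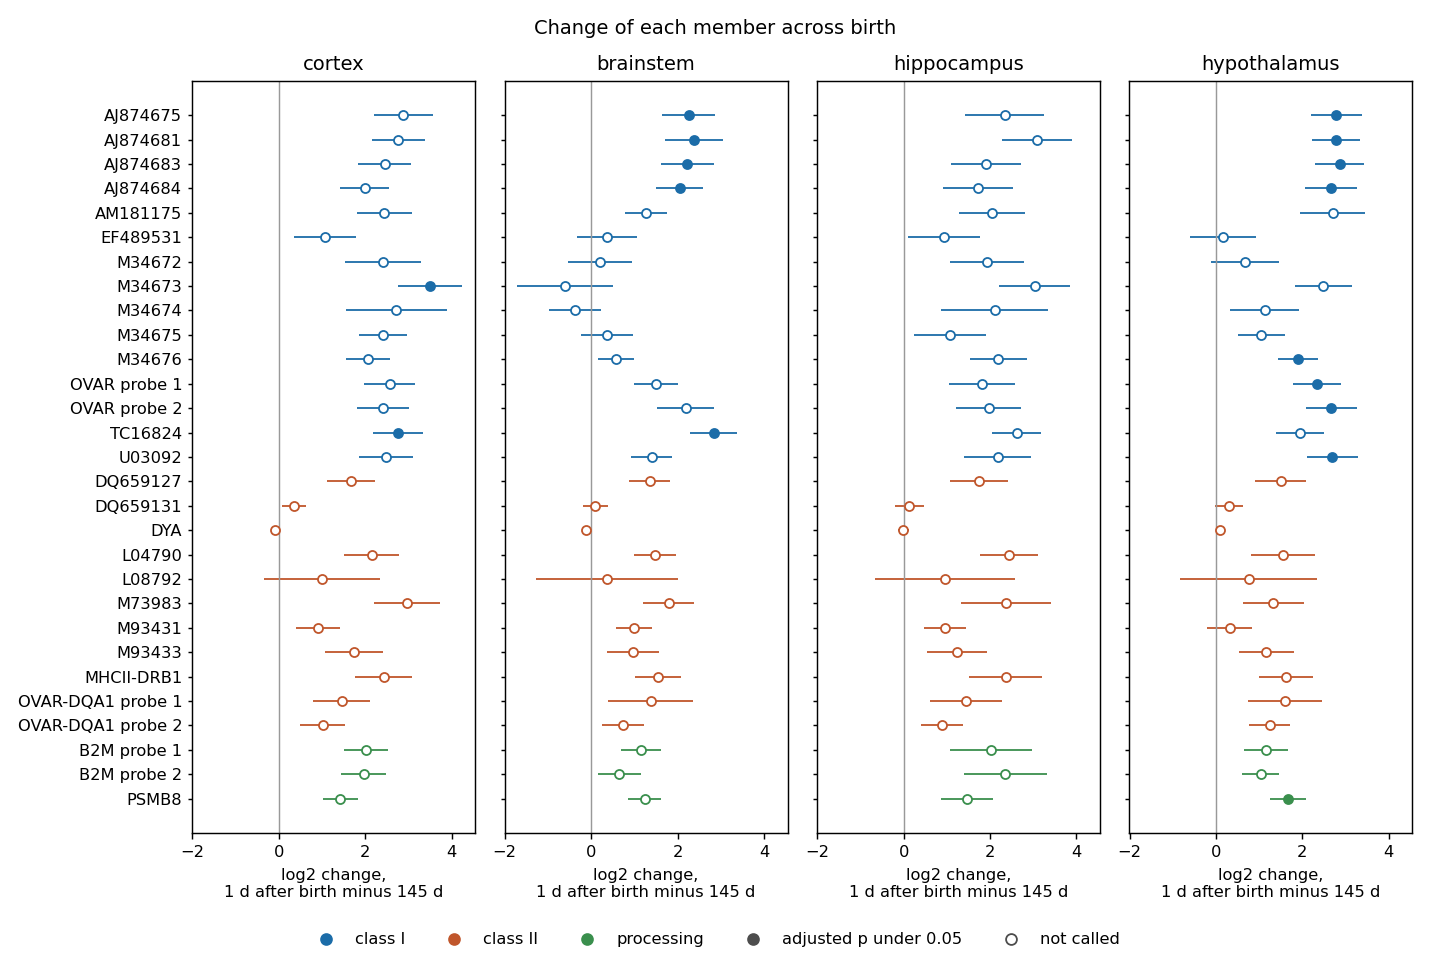
Change of each of the 29 members from 145 d of gestation to 1 d after birth in each region, in log2 units with its SE (bars), where filled points have an adjusted p under 0.05 in limma. Most points lie to the right of 0, and the filled class I points number 2 for cortex, 5 for brainstem, 0 for hippocampus and 8 for hypothalamus.

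M34673 gave the largest birth change in cortex. Its log2 intensity after birth was 14.77, 17.70, 16.55 and 16.57, all above the 13.17 that was its highest value at 145 d. The change was 3.50 (SE 0.74, adjusted p = 0.047 in limma). TC16824, also called in cortex, read 6.66, 7.62, 6.52 and 7.63 at 145 d and 8.24, 11.12, 11.14 and 8.98 after birth. Its groups did not overlap either, and it changed by 2.76 (SE 0.57, adjusted p = 0.0445). With the processed signal this change was 5.13 and was not called (adjusted p = 0.16). Leaving out single arrays ended the call of M34673 in 19 of 24 refits and that of TC16824 in 17, with changes of at least 3.07 and 2.34 (adjusted p up to 0.192 and 0.188). In 13 of 15 class I members all cortex arrays after birth were above all those at 145 d, as in 1.51% of all probes.

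In brainstem TC16824 had the largest called birth change. It read 6.54, 7.68, 6.92 and 6.50 at 145 d and 7.95, 10.81, 10.70 and 9.52 after birth, without overlap. The change was 2.83 (SE 0.54, adjusted p = 0.00699 in limma), while from 80 to 145 d it changed by -0.29 (adjusted p = 0.716). At 145 d only 2 of its 4 arrays were well above background, in brainstem as in cortex, so the size of its change depends on dim readings. AJ874681 read 13.93, 17.67, 15.31 and 14.75 after birth and changed by 2.38 (SE 0.67, adjusted p = 0.0432), a call lost in 12 of 24 refits without an array (1.63 at the lowest, without newborn replicate 2), while that of TC16824 held in all. The other called members were AJ874675, AJ874683 and AJ874684, with changes of 2.04 to 2.25.

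The brainstem values after birth were those most touched by missing spots. The M34672 to M34676 probes had changes of -0.60 to 0.58 there, with the marked array dropped from the fit. M34673 changed by -0.60 (SE 1.1), and with the marked spot kept by 0.35. Replicate 4 read this probe at 10.27, inside its dim area, and with dim areas left out 7 members were called in brainstem, against 4.75% of all probes higher. With all marked spots kept, 10 members were called in brainstem instead of 5, against 3.71% of all probes in both fits, B2M probe 1 among them at 1.55 (adjusted p = 0.0405).

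In hypothalamus AJ874683 led the class I members. It read 11.68, 10.72, 12.01 and 11.80 at 145 d and 13.11, 16.12, 14.78 and 13.64 after birth, so the groups did not overlap. The change was 2.86 (SE 0.57, adjusted p = 0.02 in limma), or 7.26-fold. The call was lost without 145 d replicate 1 (adjusted p = 0.0584) and without newborn replicate 2, which left a change of 2.29. AJ874675, AJ874681, AJ874684, both OVAR probes, U03092 and M34676 were also called, with changes of 1.89 to 2.79. M34672, which led the fetal change there, changed by 0.68 across birth (SE 0.79, adjusted p = 0.698), with 15.70, 15.51 and 14.61 on the 3 arrays that had a value. With the marked spots kept that change was 1.51 (adjusted p = 0.268).

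The hippocampus had class I changes across birth with a wider spread. At an unadjusted p under 0.05, 12 of its 15 class I members, 4 of its 11 class II members and 3 of its 3 processing probes were higher after birth, against 1.53% of all probes. M34673 read 14.05, 13.67, 12.73 and 13.69 at 145 d and 17.74, 16.61, 14.94 and 17.00 after birth. These arrays did not overlap, but the change was not called. Over all probes the median SD within an age was 0.48 in hippocampus and 0.17 in cortex, and the median SD of the class I members was 1.19 and 0.95.

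Single arrays decided how many birth changes were called. Without the highest array after birth, 0 class I members were called in cortex, hippocampus and hypothalamus and 1 in brainstem (TC16824, 2.48, adjusted p = 0.021), against 0.0595, 0.00757, 0.297 and 3.24% of all probes. The median class I change was then 1.90 in cortex, 1.3 in hippocampus, 1.95 in hypothalamus and 1.27 in brainstem. Leaving out the high array at 120 d, which enters only through the spread, gave 19 members of the 29 called higher for cortex, 15 for brainstem, 0 for hippocampus and 11 for hypothalamus, against 0.476, 3.71, 0.00757 and 1.17% of all probes. Leaving out both of these arrays together, which were chosen by their measured class I level, gave 17 members called higher for cortex, 12 for brainstem, 0 for hippocampus and 7 for hypothalamus, against 0.342, 3.17, 0.0151 and 0.431% of all probes. In that setting 1 member, EF489531, was called lower in hypothalamus, with a change of -1.14 (adjusted p = 0.0462 in limma), where the fit of all arrays gave a change of 0.16 (adjusted p = 0.946). Within each slide that held both ages the median class I change across birth was above 0, from 0.79 to 4.71.

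The high arrays were high in more than class I, and beside class I the lists of other cells moved as follows. On the high arrays at 120 d and after birth in cortex, class II exceeded the mean of the other arrays of the group by a median of 3.31 and 2.26, and the processing probes by 2.67 and 1.84. The T cell list differed by 0.42 and 0.47, the microglia and myeloid list by 0.57 and 0.26, and the endothelial list by 0.03 and -0.10. In the other regions the T cell list differed by 0.75 to 0.94 at 120 d and by 0.97 to 1.34 after birth. The NK list, whose only gene with a probe was GNLY, differed by 0.33 to 1.49 and by 0.95 to 1.64 over the 4 regions. The erythroid list (HBB and AHSP) was higher on each high array at 120 d, by 0.58 to 1.42, and differed by -1.04 to 0.20 after birth. Summed over its 9 probes, the T cell list had a linear intensity of 1197 to 1414 in cortex at 145 d and of 1270 to 2377 after birth. The 4 probes of GNLY, which encodes the cytotoxic granule protein granulysin, summed to 365.8 to 472.2 at 145 d and to 379.2 to 2528 after birth. The microglia and myeloid list of 10 probes went from 2429 to 2910 at 145 d to 2511 to 5966. In each of these lists the lowest cortex array after birth was within the range at 145 d. In brainstem the T cell sum went from 1230 to 1277 at 145 d to 1523 to 3109 after birth and the microglia and myeloid sum from 3621 to 4600 to 4813 to 8107, both without overlap. In hippocampus the T cell sum (1207 to 1550, then 1648 to 2833) and the GNLY sum (360.9 to 493.2, then 711.5 to 2881) did not overlap either. The ranges at 145 d and after birth overlapped for GNLY in brainstem, for the microglia and myeloid list in hippocampus and for all 3 sums in hypothalamus. CR2, the B cell gene with a probe, was called in no region across birth, while its highest sum after birth was 386.3 to 452 over the 4 regions, against 188.6 to 259.1 at 145 d. GFAP of the astrocyte list was called higher in brainstem (1.03 and 1.12 on 2 probes) and hypothalamus (1.58 and 1.71), where the water channel AQP4 was called lower (-3.54). In brainstem GNLY (2.50 and 2.35 on 2 probes), CD14 (0.64 and 0.78), CD5 (0.70) and ITGAM (0.43) were called higher after birth, and in hypothalamus GNLY (2.75) and FCER1G (0.93). Over all probes 3.71% were called higher in brainstem and 1.10% in hypothalamus, and 1.07 and 0.728% lower. CD3E, a defining T cell gene, had a mean of 7.49 at 145 d and 8.27 after birth in cortex on its brighter probe, without a call (adjusted p = 0.508). The part of these cells in the MHC changes was not tested.

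No class II change before birth passed the adjusted threshold. Between 80 and 145 d, 0 class II members were called in either direction in any region. Over all probes 18.9% rose and 22.3% fell in cortex and 16.2 and 20.7% in brainstem. In hippocampus these shares were 2.08 and 2.24%, and in hypothalamus 5.32 and 8.07%. The median class II changes were 0.17 for cortex, 0.52 for brainstem, -0.25 for hippocampus and 0.22 for hypothalamus. In brainstem 10 of the 11 changes were above 0, and for 7 members all arrays at 145 d were above all those at 80 d, as in 22.6% of all probes. In cortex, hippocampus and hypothalamus 0 members did so, against 16.5, 7.06 and 7.42% of all probes. Across birth the means of 10, 10, 10 and 11 of 11 members were higher in cortex, brainstem, hippocampus and hypothalamus. The median changes were 1.46, 1.00, 1.24 and 1.25. Without the newborn array highest for class I (replicate 2, and replicate 1 in hippocampus), the class II medians were 0.81, 0.64, 0.65 and 0.64. With all arrays limma again called 0 class II members across birth, against 0.179, 3.71, 0.00757 and 1.10% of all probes called higher. At an unadjusted p under 0.05, class II members higher after birth numbered 6 for cortex, 5 for brainstem, 4 for hippocampus and 3 for hypothalamus, against 4.19, 13.5, 1.53 and 10.3% of all probes, and 0 were lower. In the fetal comparison only DYA in cortex passed that limit, at a level near background. Over all probes 21.8, 20.3, 6.76 and 10% were higher at that limit in the 4 regions, in the same order. The difference between the classes was not tested.

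M73983, the DR alpha chain that pairs with all DR beta chains, had the lowest class II p of the F test over ages in cortex and brainstem. In cortex it read 7.37, 8.55, 7.58 and 8.04 at 80 d, 8.01, 8.13, 8.42 and 8.39 at 145 d, and 8.80, 13.45, 11.45 and 11.13 after birth. The arrays after birth did not overlap with those at 145 d, yet differed widely among themselves, and the change of 2.97 (SE 0.76, adjusted p = 0.121) was not called. In brainstem it went from 10.45, 10.46, 10.57 and 10.45 at 145 d to 11.17, 14.12, 11.96 and 11.87, a change of 1.80 (SE 0.59, adjusted p = 0.0842). Among the DR beta chains, MHCII-DRB1 changed across birth in cortex by 2.43 (adjusted p = 0.166) and L04790 (DR-beta-3) by 2.16 (adjusted p = 0.223).

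In the other regions the class II member with the lowest p in that F test was L04790 in hippocampus and M93433, a DQ alpha chain, in hypothalamus. L04790 read 7.58, 8.63, 6.36 and 7.95 at 145 d and 11.93, 10.05, 7.84 and 10.48 after birth, where a single array fell within the earlier range. M93433 read 9.63, 8.74, 7.88 and 8.84 at 145 d and 9.20, 11.95, 9.12 and 9.50 after birth, with 3 of the 4 later arrays inside the earlier range. Across birth it changed by 1.17 (adjusted p = 0.329), and the lowest adjusted p of the class there was 0.153, for OVAR-DQA1 probe 2. Its highest value at any age was on the high array at 120 d, at 12.59.

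DYA, the alpha chain of a ruminant class II pair, stayed near background. DQ659131, a dim probe, was well above background on 3 or 4 of 4 arrays in each brainstem group and read 8.50 to 8.71 on the high array at 120 d of each region, and at most 7.55 on all other arrays. The changes of both across birth lay between -0.11 and 0.35 in all regions. DQ659131 was designed on a single DRB1 allele (Ovar-DRB1G1).

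**Figure D3:**
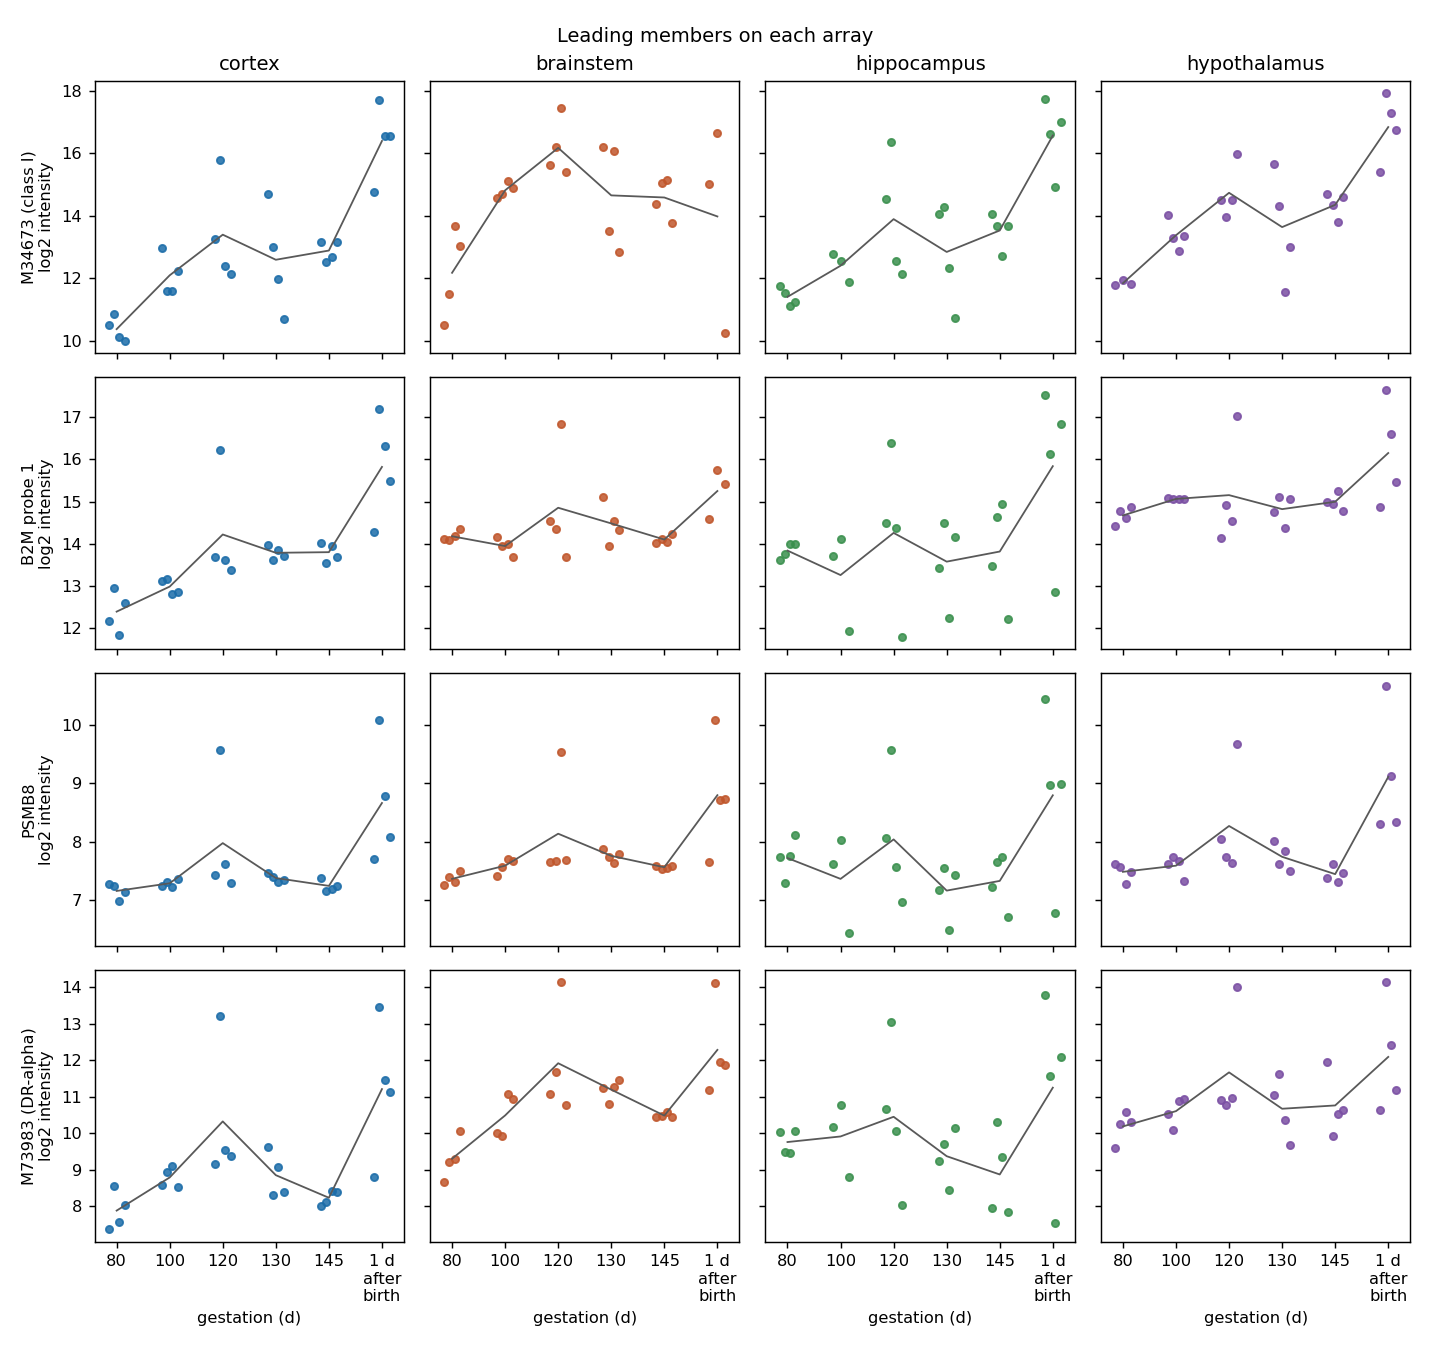
Log2 intensity of M34673 (class I), B2M probe 1, PSMB8 and M73983 (DR alpha) on each array (points) with group means (lines), by region and age. The high arrays at 120 d and after birth recur in the 4 probes, except that the high brainstem array after birth has no value for M34673 and B2M probe 1, and 5 hippocampus arrays read B2M probe 1 below 13.

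B2M rose before birth in cortex. B2M probe 1 in cortex read 12.17, 12.95, 11.83 and 12.59 at 80 d, 14.02, 13.53, 13.95 and 13.69 at 145 d, and 14.28, 17.20, 16.33 and 15.48 after birth. Each later group lay wholly above the earlier one. The fetal change was 1.41 (SE 0.51, adjusted p = 0.0318 in limma), and the second probe gave 1.36 (SE 0.52, adjusted p = 0.0387). Both calls were lost without 80 d replicate 1 or 3 or without 145 d replicate 1, 3 or 4, with changes of at least 1.22 and 1.15 (adjusted p up to 0.093 and 0.116). The call of the second probe was also lost with the processed signal (1.17, adjusted p = 0.0761) and with the slide as a fixed block (adjusted p = 0.0542). The birth change of 2.03 (SE 0.51, adjusted p = 0.118) was not called, and without newborn replicate 2 it was 1.57.

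In brainstem and hypothalamus the fetal change of B2M was not called. B2M probe 1 read 14.11, 14.08, 14.17 and 14.34 in brainstem at 80 d and 14.02, 14.10, 14.04 and 14.23 at 145 d, with a change of -0.08 (SE 0.43, adjusted p = 0.912). After birth it read 14.58, 15.75 and 15.42 on the 3 arrays with a value, all above those at 145 d. In hypothalamus it read 15, 14.95, 15.25 and 14.78 at 145 d and 14.88, 17.66, 16.61 and 15.46 after birth, with overlap and a change of 1.16 (SE 0.50, adjusted p = 0.21), or of 0.66 without newborn replicate 2. The difference of the fetal change between regions was not tested.

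At 80 d the mean of B2M probe 1 was 12.39 in cortex and 13.84 to 14.67 in the other regions. In hippocampus it read 13.46, 14.64, 14.95 and 12.20 at 145 d and 17.52, 16.13, 12.86 and 16.85 after birth, with 1 low array of slide 4 at each age. Without slide 4, 0 members were called across birth in hippocampus, against 0.0151% of all probes higher. In the fetal comparison 2 were called higher, against 3.01% of all probes, and 5 were called in the F test.

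PSMB8 had small changes from 80 to 145 d and higher means after birth. In cortex it read 7.28, 7.23, 6.98 and 7.13 at 80 d, 7.37, 7.16, 7.19 and 7.24 at 145 d, and 7.69, 10.09, 8.78 and 8.08 after birth. The arrays after birth were all above those at 145 d, but the change of 1.42 (SE 0.40, adjusted p = 0.21) was not called. In hypothalamus the change of 1.67 (SE 0.41, adjusted p = 0.0439 in limma), or 3.17-fold, was called, with 7.38, 7.61, 7.32 and 7.46 at 145 d and 8.30, 10.67, 9.13 and 8.33 after birth. This call was lost in 15 of 24 refits without an array (1.14 and adjusted p = 0.112 without newborn replicate 2) and with the replicate block (adjusted p = 0.0505). In cortex the change without newborn replicate 2 was 0.94.

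In brainstem PSMB8 read 7.59, 7.53, 7.55 and 7.58 at 145 d and 7.64, 10.09, 8.71 and 8.74 after birth. All later arrays were higher, the lowest by a small margin, and the change was 1.24 (SE 0.38, adjusted p = 0.063), or 0.80 without newborn replicate 2. In hippocampus the arrays overlapped, with 7.22, 7.65, 7.73 and 6.70 at 145 d and 10.45, 8.96, 6.78 and 8.98 after birth. The fetal change of PSMB8 lay between -0.39 and 0.20 in the 4 regions.

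Levels of the 3 groups of members moved together from array to array. Over the arrays of a region the class I and class II medians correlated with r between 0.76 and 0.88 (24 arrays, 23 in hippocampus), and after taking out the age means with r between 0.82 and 0.94. These arrays share the normalization and the high samples described above, and the correlations are given as a description.

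Whether the birth change differed between the regions was tested in a single fit over all 95 arrays. By the numbers of fetuses and samples in the methods the regions share animals, which the labels do not match, so the arrays are not independent, and the fit took them as if they were. This test called 0 of the 29 members, against 0.0503% of all probes, and also 0 with arrays of 1 age and replicate number as a random block. Of 143 comparisons of an array with another region at the same age, 60 were closest to the array of the same number. The numbers are not known to mark animals, so that block cannot stand for shared animals. In the main fit 1 member had an unadjusted p under 0.05. That member was M34673 (adjusted p = 0.47), whose birth change was 3.50 in cortex and -0.60 in brainstem, the region with missing and dim spots for this probe.

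L08792 and EF489531 behaved apart from their classes and were chosen after their values were seen. The DQB1 probe L08792 read either high or low. Over all 95 arrays 59 were above a log2 intensity of 9, and only 6 lay between 8 and 10, within a whole range of 6.48 to 14.61. In cortex it read 6.87, 10.44, 6.54 and 10.24 at 80 d, 11.36, 11.15, 10.90 and 11.70 at 100 d, and 10.97, 7.04, 6.60 and 6.60 at 145 d. The number of arrays above 9 was the same in every region, with 2 at 80 d, all at 100 d, 3 at 120 d, 3 at 130 d, 1 at 145 d and 2 after birth. No age change of L08792 was called.

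EF489531, a class I probe, was above 9 on 8 of 95 arrays. After birth it read 8.02, 11.62, 6.66 and 6.44 in cortex, 8.14, 11.74, 6.49 and 7.12 in brainstem, 11.52, 6.79, 6.93 and 6.45 in hippocampus and 6.40, 11.71, 6.53 and 6.62 in hypothalamus. In each region the array above 11 was the one with the highest class I level. The high array at 120 d was also the highest for EF489531, at 9.16 to 9.71.

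**Figure D4:**
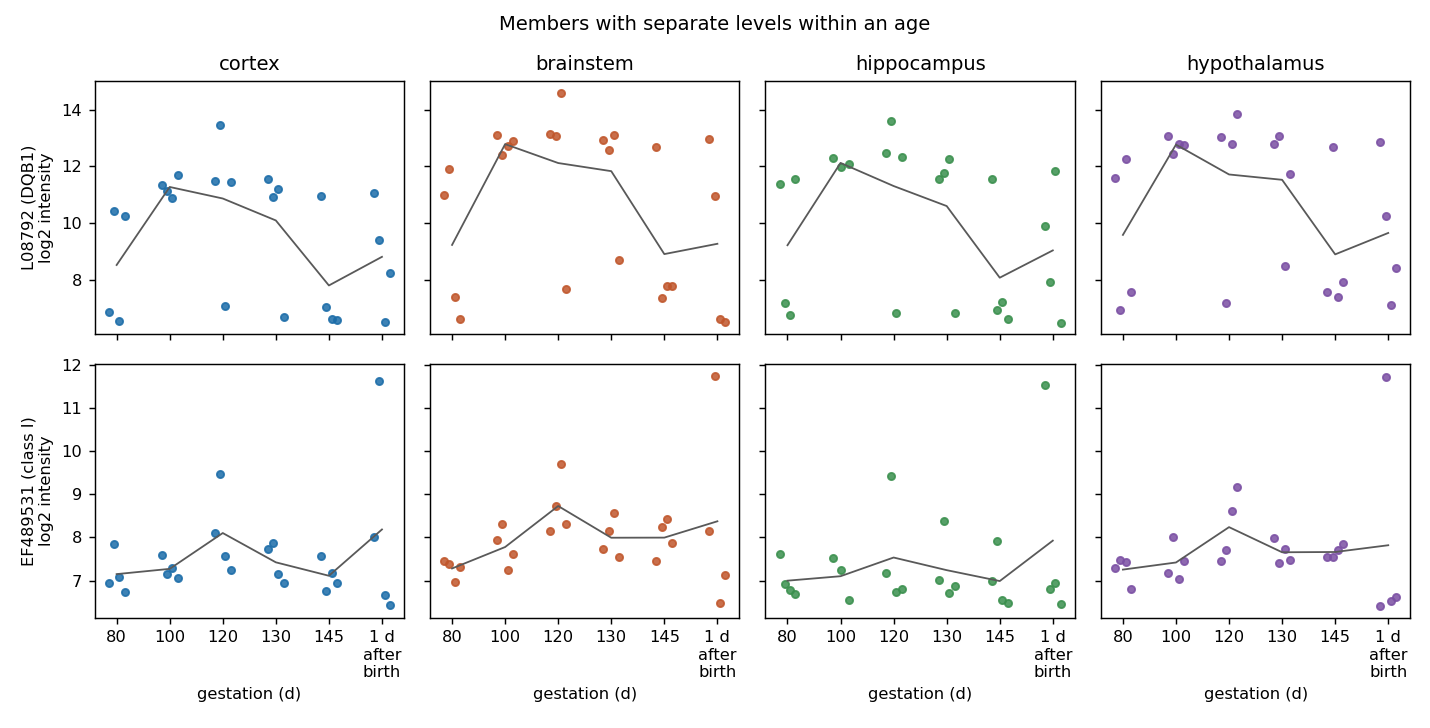
Log2 intensity of L08792 (DQB1) and EF489531 (class I) on each array (points) with group means (lines), by region and age. L08792 splits the arrays at most ages with 59 of 95 above 9, and EF489531 is above 11 on 1 array per region after birth.

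Other genes of the pathway were looked at through lists of names. Of 39 genes for antigen processing and presentation, 8 had a probe with that name and 7 were tested, namely PSMB7, PSME2, HSP90AA1, CTSB, HSPA5, LGMN and CTSS. Across birth 0 of them were called in any region. In cortex 5 of the 7 rose and 1 fell between 80 and 145 d, against 18.9% and 22.3% of all probes, and in brainstem 0 rose and 2 fell, against 16.2% and 20.7%. CTSS, the protease that trims the class II invariant chain, rose in cortex by 1.55 (SE 0.42, adjusted p = 0.00463 in limma), and PSME2, an activator of the immunoproteasome, fell there by 0.79 (SE 0.23, adjusted p = 0.00959).

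Of 45 genes of the interferon axis 12 had a probe. Among the genes of the list called after birth was MX2, an antiviral interferon-induced GTPase, which was higher in brainstem by 1.96 (SE 0.47, adjusted p = 0.0225 in limma). The interferon receptor chain IFNAR1 was higher in hypothalamus by 1.27 (SE 0.29, adjusted p = 0.0371). In cortex and hippocampus 0 of the list were called after birth. Over all probes 0.179, 3.71, 0.00757 and 1.10% were called higher in cortex, brainstem, hippocampus and hypothalamus. On the high arrays in cortex the interferon axis differed from the other arrays of the group by a median of 0.49 at 120 d and 0.40 after birth, and in the other regions by 0.36 to 0.41 and 0.19 to 0.79. The summed intensity of its 16 probes did not overlap across birth in cortex (14140 to 17000 at 145 d, 17650 to 62830 after birth) and brainstem (13600 to 18760, then 21270 to 71480), and overlapped in the other regions.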

How the data were processed

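Per the labels, Cy3-labeled RNA of 1 sample was hybridized to each array, and the authors read the slides with scanner software (version 10.1.1.1 in the files). The deposited array files hold linear mean and local background intensity per spot, not yet normalized. The authors also deposited a table of normalized log2 values (11138 probes). Each of its 95 columns matched its own array best (slopes 0.955 to 0.992, column medians 9.04 to 9.10), and it served as an alternative. Its scale is log2 and its values are levels, while the exact background setting stays unknown.

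Mean intensity was background corrected with normexp (offset 50, limma 3.58.1 in R 4.3.3) and quantile normalized over all arrays, which narrows the changes of dim probes. Spots with an outlier mark were left out (22 member values on 10 arrays). The filter on dim probes asked for 1.1 times the negative controls (95th percentile of 77 spots) on 4 or more arrays of a region. Every probe was tested on its own. The ages of a region were fitted together (lmFit, eBayes) with an F test against 80 d, because the BETR algorithm of the methods was not installed, and contrasts for 145 d minus 80 d and 1 d after birth minus 145 d. The precision is limited by the number of arrays, and log2 values below about 6.48 were not well above background. No arrays held identical values. The tests were also tested on simulated data. Figures used matplotlib 3.10.9.

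The array files name and annotate the probes, and 6 members matched the RefSeq table by accession. Single arrays are given for the called members with the largest fetal and birth change of each class and region, or else for the lowest p, and for B2M and PSMB8. The members, lists (antigen processing, interferon axis, T cell, microglia and myeloid, NK, endothelial, neuron and oligodendrocyte) and tests were chosen with earlier results of these data known. Same-numbered cortex arrays deviated together in all 4 pairs (r = 0.193 to 0.354 for the fetal and 0.154 to 0.290 for the birth comparison). In each comparison 2 of these 4 were closest to the array of their own number. Brains were removed for sampling, so arrays of different ages come from different animals and the numbers cannot pair them by animal. In cortex replicate 1 was on slide 1 and replicate 4 on slide 3 at every age, so number and slide overlap. The labels give only the numbers, and the replicate block is given as an alternative only. Alternatives were other background corrections, normalizations and filters, the authors' table, averaged probes, blocks, robust settings, dim areas left out and single arrays left out. Keeping marked spots, leaving out slide 4 and leaving out the highest array at 120 d and after birth together were added after seeing the data. One gene of the interferon axis list is not reported here.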

Additional observations from a re-analysis of the deposited data

Results flagged for a closer look

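Class I, class II and processing levels in each region and age made 69 groups of 4 arrays. In 9 of these the gap of an array to its neighbor exceeded 0.83 of the range of the group. Chance alone flags about 1 group in 20 where groups are independent. The 3 levels were read on the same arrays, so these groups are not independent and their count cannot be set against that share. In cortex at 120 d the highest array (replicate 2) stood apart in class I (0.859 of the range), class II (0.839) and processing members (0.952). In hypothalamus at 120 d the highest array (replicate 4) stood apart in class II (0.840) and processing members (0.898). That array was the only one of hypothalamus on its slide and scan day, so these cannot be told apart from the sample. The highest class II array stood apart in brainstem 1 d after birth (0.861) and in hypothalamus at 145 d (0.901). The lowest class I array stood apart in brainstem at 80 d (0.845) and in hypothalamus at 100 d (0.918).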

How the results depend on the processing

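No change of a called member reversed under any alternative run. The fetal median of the processing members changed sign, in brainstem from -0.08 to 0.26 with the processed signal and 0.04 with probes of a gene averaged, and in hippocampus from -0.39 to 0.09 with the slide as a fixed block and 0.08 without slide 4 or its array at 145 d (replicate 4). Of the counts of called members, 156 kept within 1.5 times their main value and 15 did not. Of the single called changes, 442 stayed called and 26 were no longer past the threshold. The cortex birth count (2) was 0 with the processed signal, 0 without a filter and 0 with trend and robust settings. Over all probes 0.0819, 0.107 and 0.141% were called higher there. With the replicate block this count was 4, against 0.223%. The brainstem birth count (5) was 10 with the authors' series table and 10 with marked spots kept, against 4.29 and 3.71% of all probes. In hippocampus the F test count (3) was 5 with the processed signal, 7 with the slide as a fixed block and 5 without slide 4. The fetal count (0) there was 2 with the slide as a fixed block and 2 without slide 4. Over all probes 3.17 and 3.01% were then called higher, against 2.08% in the main fit. Class medians that moved beyond their spread were the fetal changes of class II in cortex (0.87) and hippocampus (-0.59) and of processing members in brainstem (0.26) and hypothalamus (0.50) with the processed signal, and of processing members in cortex (0.74) and brainstem (0.04) with probes of a gene averaged. The highest array at 120 d and that after birth were also left out together. The birth count was then 17 in cortex and 12 in brainstem, against 0.342 and 3.17% of all probes. The fetal count was 14 and 13, against 19.2 and 16.3%. Hypothalamus then had 8 birth calls, of which 1 was lower (EF489531), and hippocampus 0. The left-out arrays were chosen by their measured class I level, which also narrows the spread, so these counts are no support for the changes. The causes were not tested.

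With the replicate block, PSMB8 in hypothalamus changed by 1.67 with an adjusted p of 0.0505, and no other named call was lost. In cortex 12 members were then called higher in the fetal comparison instead of 9, against 20.8% of all probes. Outside cortex the number of same-numbered pairs with r over 0.1 was 2 of 4 (fetal) and 1 of 4 (birth) in brainstem, 3 and 1 in hippocampus, and 3 and 3 in hypothalamus. Not every pair deviated together there. In every region arrays of different ages come from different animals, so the numbers do not pair them by animal.

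Leaving out each array in turn gave birth counts of 0 to 19 in cortex, 1 to 15 in brainstem, 0 to 4 in hippocampus and 0 to 13 in hypothalamus, fetal counts of 3 to 13, 4 to 10, 0 to 0 and 0 to 4, F test counts of 17 to 23, 14 to 22, 1 to 11 and 10 to 15, and 0 to 0 for the difference between regions. The cortex birth count moved by over 1.5 times with 21 of 24 arrays. It was 19 without 120 d replicate 2 and 18 without newborn replicate 1, against 0.476 and 1.07% of all probes higher. In the main fit that share was 0.179%. In brainstem the birth count moved with 8 arrays, among them 120 d replicate 3 (15, against 3.71%) and each array at 145 d (1 or 2, against 1.07 to 2.27%). In hippocampus it was 4 without newborn replicate 3, against 0.182%. In hypothalamus it was 0 without 145 d replicate 1 or newborn replicate 2, against 0.178 and 0.297%. The fetal count was lowest without 80 d replicate 3 in cortex (3, against 17.6% of all probes). In brainstem it was lowest without 80 d replicate 1 (4, against 14.1%). In hypothalamus this held without 80 d replicate 1 or 145 d replicate 4 (0, against 4.19 and 4.68%). Dim readings of DYA and DQ659131 are bounds, and marked spots limit what brainstem shows after birth.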
